A study of Mus musculus with 2 samples.

Results

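Six3 and Six6 are related homeobox genes whose listed N6-methyladenosine (m6A) positions were examined in native RNA of early mouse retinal organoids. The members were all positions listed under either gene name in the main table of each library. There were 17 such positions of 26441 in replicate 1 and 22 of 50099 in replicate 2, on 3 transcripts, and 16 of the 23 different positions were listed in both libraries. A site was a position with at least 20 reads, which left 5 member sites of 6463 in replicate 1 and 19 of 16212 in replicate 2. All 5 sites of replicate 1 belonged to Six6. In replicate 2, Six6 had 10 sites and Six3 had 9.

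Both libraries came from wild-type organoids of the Rx:GFP line at day 6, grown in the presence of AGN at 0.1 µM. This mouse stem cell line carries a green fluorescent reporter of Rax, an early eye-field gene. The organoids form 1 group with n = 2, so no condition was compared with another, and the labels do not say whether the replicates were separate cultures. Poly(A) RNA was sequenced directly with the RNA002 chemistry, 1 library per flow cell. Of 8 retinal progenitor markers, 7 were listed in each library, with highest coverages of 7 to 111 reads in replicate 1 and 17 to 261 in replicate 2. These 7 include Six3 and Six6 themselves, which are listed by choice. None of 6 pluripotency, 3 mesoderm, 3 endoderm, 2 neural crest and 4 mid- and hindbrain markers was listed. Markers of pigment epithelium, neurons and surface ectoderm did not exceed 11 reads in replicate 1 or 17 in replicate 2. A position was listed only from 5 reads, so a gene that is not listed may be weakly expressed or may lack a listed motif.

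Six3 and Six6 encode transcription factors with a sine oculis domain and a homeodomain. Both are switched on in the anterior neural plate and the eye field, where they act largely as repressors with partners of the Groucho (Tle) family. Six3 is required for forebrain and eye formation and represses Wnt genes, and Six6 (also called Optx2) supports proliferation of retinal progenitors. N6-methyladenosine is written on messenger RNA mainly by the METTL3 complex, at adenosines in a short context with a central AC, and it influences RNA stability, processing and translation.

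The listed motifs carry the comparison, since fractions differ between them. They are 5 bases long, and 4 different ones occur in the tables. They are given in DNA letters with the central adenosine, the base that is methylated in this context, in capitals. Which base the listed coordinate marks is not stated in the sources used here, and no transcript sequence was used, so only these 5 bases are shown.
The motif ending in A: ggAca
The motif ending in C: ggAcc
The motif ending in T with G first: ggAct
The motif ending in T with A first: agAct
Read numbers given with a fraction below are the coverage of the position. The number of reads behind the fraction itself is not given. The fraction modified, a deposited value from 0 to 1, had a median of 0.667 over the 5773 sites of ggAca in replicate 2. The medians of the other motifs there were 0.231 for ggAcc, 0.230 for ggAct and 0.263 for agAct. All 4 motifs occurred in both genes: the 10 Six6 sites of replicate 2 were 3 ggAca, 2 ggAcc, 2 ggAct and 3 agAct, and the 9 Six3 sites were 4, 2, 1 and 2.

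Six6 lies on chromosome 12 (72986666 to 72991673) and was represented by 1 transcript, ENSMUST00000021519.6. Its 5 sites with enough reads in both libraries lay between positions 614 and 1315 and were covered by 67 to 83 reads in replicate 1 and 159 to 186 in replicate 2. The highest was the ggAct at position 663, with 0.727 from 68 reads in replicate 1, 0.670 from 163 reads in replicate 2 and a mean of 0.699 ± 0.0407 (SD, n = 2). The lowest was the ggAcc at position 614, only 49 nt upstream, with 0.125 over 67 reads and 0.117 over 161 reads. These neighbours stood far apart in both libraries, by 0.602 in replicate 1 and 0.553 in replicate 2, which exceeds the spread between replicates. With 2 libraries the exact paired permutation test (two-sided) cannot give less than p = 0.5, the value found for this pair.

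The other 3 shared sites of Six6 took intermediate fractions. The agAct at position 1315 had 0.438 over 68 reads and 0.495 over 159 reads. The ggAcc at position 1029 had 0.241 over 80 reads and 0.288 over 186 reads. The agAct at position 1148 had 0.250 over 83 reads and 0.187 over 185 reads. The order of the sites at 1029 and 1148 was opposite in the 2 libraries, and these 2 neighbours in rank did not differ beyond their spread. The direction was the same in both libraries for the other 9 of the 10 pairs of shared sites.

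Sites of the same motif also differed within Six6. The 2 agAct sites, 167 nt apart, differed by 0.188 in replicate 1 and 0.308 in replicate 2, the downstream one being higher each time. The 2 ggAcc sites, 415 nt apart, differed by 0.116 and 0.171, again with the downstream one higher. Each of these pairs gave p = 0.5 in the exact paired permutation test, its smallest value.

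**Figure D1:**
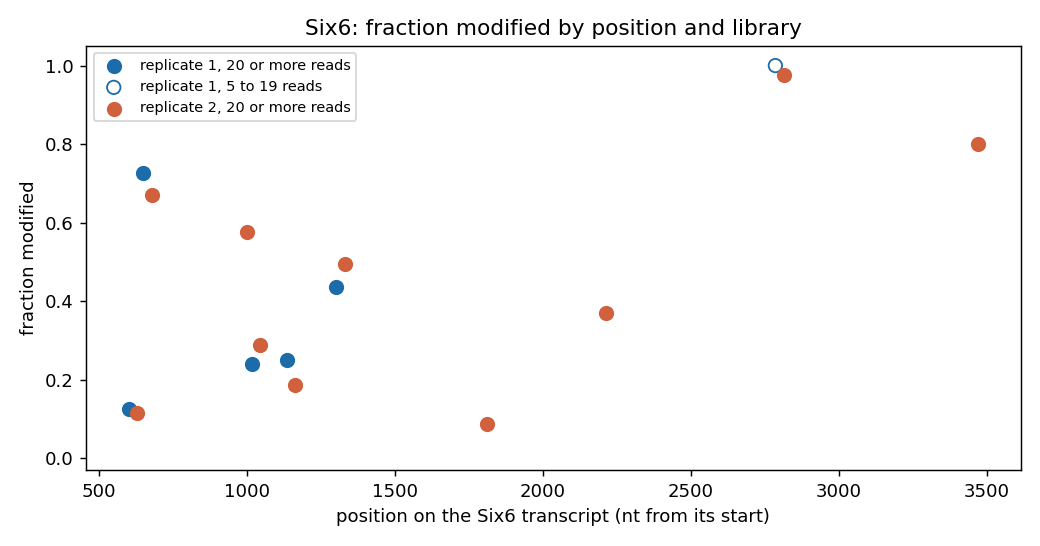
Fraction modified (y axis, 0 to 1) against position on the Six6 transcript (x axis, nt from its start), with replicate 1 in blue and replicate 2 in orange, set slightly apart. Filled points have 20 or more reads and the open point has 5. The 5 shared sites keep to similar heights in both libraries, and the sites at 2799 and 3456 reach 0.976 and 0.80 in replicate 2.

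A further 5 Six6 sites reached 20 reads in replicate 2 only. The ggAca at position 984 had a fraction of 0.576 over 183 reads. It was not listed in replicate 1, although the listed sites on either side, at 663 and 1029, had 68 and 80 reads there. Over all transcripts, 343 of 2534 sites of replicate 2 that lay between deep sites of replicate 1 (13.5%) were likewise not listed in replicate 1. Among Six6 sites this applied to 1 of 4.

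The remaining 4 lay downstream of position 1315. The agAct at position 1797 had 0.0870 over 31 reads and the ggAct at 2198 had 0.370 over 35 reads. The ggAca at 2799 had 0.976 over 43 reads, against 1 from 5 reads in replicate 1, and the ggAca at 3456 had 0.80 over 31 reads. The last 2 were the highest Six6 fractions of replicate 2, and both carry the motif with the highest median of all.

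Coverage along Six6 was not even. In replicate 2 it was 159 reads at position 1315 and 31 at position 1797, and it stayed between 31 and 43 reads up to position 3456. In replicate 1 it was 68 reads at position 1315 and 5 at position 2799, with no position listed between them. Direct RNA reads begin at the poly(A) tail, so coverage usually does not fall toward the 3′ end of a transcript. Coverage at the last listed position was 0.167 of the highest in replicate 2 and 0.0602 in replicate 1. Over the 585 and 178 transcripts with at least 5 listed positions and a highest coverage of at least 50 reads, the median of this ratio was 1 in each library. Six6 lay at the 8.80th percentile in replicate 2 and the 1.40th in replicate 1. Among transcripts whose listed positions spanned at least 2000 nt these percentiles were 13.8 of 278 transcripts and 2.88 of 52. Isoforms and 3′ ends of the reads cannot be told from the tables.

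**Figure D2:**
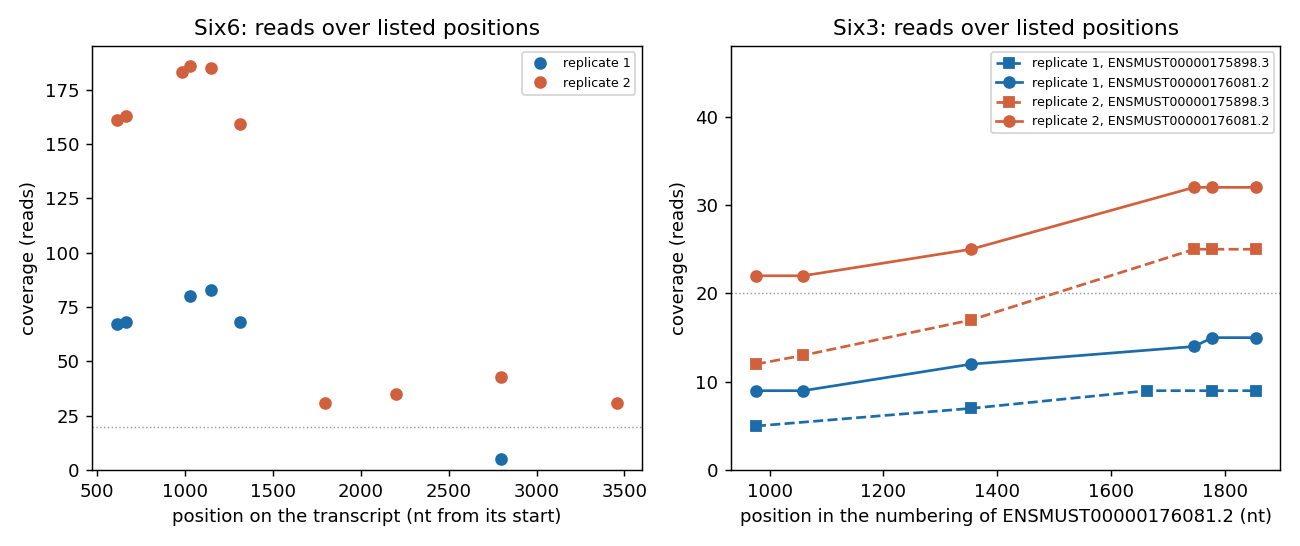
Coverage in reads (y axis) at the listed positions of Six6 (left) and Six3 (right) against position in nt, with replicate 1 in blue and replicate 2 in orange, and a dotted line at 20 reads. In the Six3 panel squares with dashed lines are ENSMUST00000175898.3, shifted by 292 nt, and circles with full lines are ENSMUST00000176081.2. Six6 drops from 159 to 31 reads between positions 1315 and 1797 in replicate 2, whereas Six3 rises from 22 to 32 reads on ENSMUST00000176081.2.

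Six3 lies on chromosome 17 (85921036 to 85936730) and was listed under 2 transcripts, ENSMUST00000175898.3 and ENSMUST00000176081.2. The positions of the 2 transcripts repeat each other: 6 positions of the first recur in the second with the same motif, each exactly 292 nt further along. The 13 listed positions of Six3 therefore fall on 7 different places, and the 9 sites of replicate 2 on 6, if the constant offset marks a shared stretch of sequence. Positions below are given in the numbering of ENSMUST00000176081.2. Six3 was the shallower gene: its highest coverage was 15 reads in replicate 1 and 32 in replicate 2, at the 54.5th and 67.3rd percentile of the 5699 and 8057 named genes listed in the respective library, against 83 and 186 reads for Six6, at the 92.0th and 95.4th.

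The first Six3 place, the ggAca at position 976, was listed as fully modified on ENSMUST00000176081.2, the fraction being 1 from 9 reads in replicate 1 and from 22 reads in replicate 2. On ENSMUST00000175898.3 it had 0.667 at a coverage of 5 reads and 0.909 at a coverage of 12 reads. Neither is a whole multiple of 1 over the coverage. Of the listed Six3 fractions, 6 of 11 in replicate 1 and 2 of 12 in replicate 2 were such multiples, within 0.0001. The ggAct 83 nt downstream, at position 1059, had 0.667 over 9 reads and 0.533 over 22 reads on ENSMUST00000176081.2. Its copy on ENSMUST00000175898.3 had 0.40 over 13 reads in replicate 2 and was not listed in replicate 1.

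The ggAca at position 1354 was close to unmodified in all 4 readings. On ENSMUST00000176081.2 it read 0 from 12 reads in replicate 1 and 0.0625 from 25 reads in replicate 2. On ENSMUST00000175898.3 it was 0 over 7 reads and 0.111 over 17 reads. It shares its 5 bases with position 976, from which it differed by 1 in replicate 1 and 0.938 in replicate 2 on ENSMUST00000176081.2. Among all 5773 ggAca sites of replicate 2, position 976 lay at the 96.1st percentile and position 1354 at the 3.26th.

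Toward the 3′ end, 3 places followed within 108 nt. The ggAca at position 1746 had 0.857 over 14 reads and 0.750 over 32 reads on ENSMUST00000176081.2, and 0.688 over 25 reads on ENSMUST00000175898.3 in replicate 2. The ggAcc at position 1778 had 0.70 over 15 reads and 0.556 over 32 reads on the former, and 0.714 over 9 reads and 0.571 over 25 reads on the latter. The agAct at position 1854 had 0 over 15 reads and 0.0333 over 32 reads on the former, and 0.167 over 9 reads and 0.0833 over 25 reads on the latter. High fractions at 1746 and 1778 and low fractions at 1854 were thus seen in each reading. The ggAcc at 1664 was listed in replicate 1 alone, on ENSMUST00000175898.3, with 0.125 over 9 reads.

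**Figure D3:**
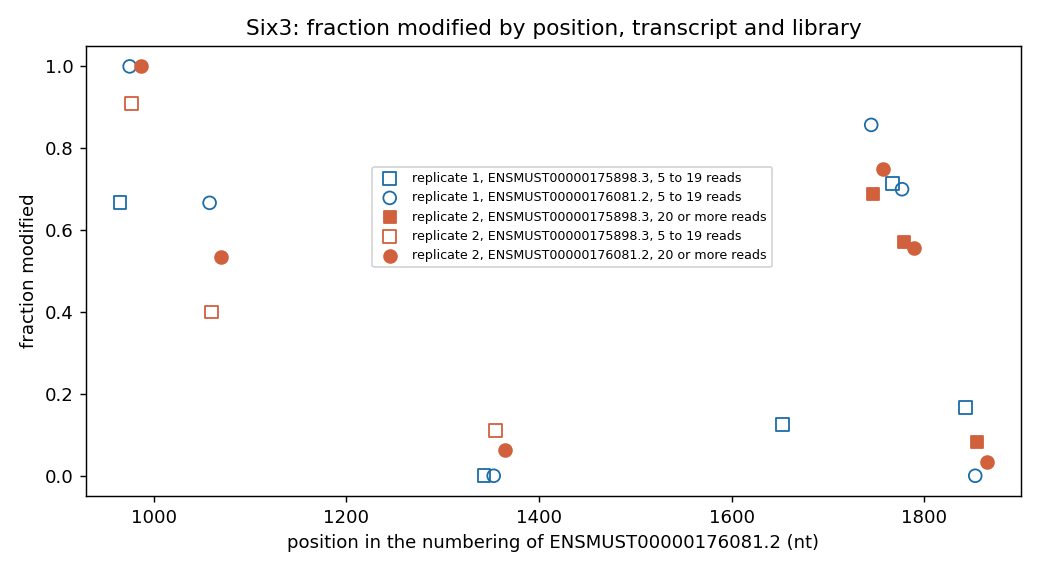
Fraction modified (y axis) against position in the numbering of ENSMUST00000176081.2 (x axis, nt), with replicate 1 in blue and replicate 2 in orange, set slightly apart. Squares are ENSMUST00000175898.3 and circles ENSMUST00000176081.2, filled where there are 20 or more reads. Readings at 976 lie between 0.667 and 1 and those at 1354 between 0 and 0.111, although both have the same motif.

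The 2 Six3 transcripts gave similar fractions where both had 20 or more reads. In replicate 2 the fraction on ENSMUST00000176081.2 minus that on ENSMUST00000175898.3 was 0.0625 at position 1746, -0.0158 at 1778 and -0.050 at 1854. Over 678 such pairs of transcript positions in 129 genes of replicate 2, the median absolute difference was 0.0605 and 8.55% of pairs differed by more than 0.2. The largest difference in Six3 was at position 976 in replicate 1, 0.333, where the depths were 5 and 9 reads. Whether a read was counted on 1 transcript or on both is not stated. If each read was counted once, the summed coverage reached 20 reads in both libraries at 2 places, 1778 and 1854, with 24 and 57 reads each.

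Replicates were compared over the positions listed in both libraries. None of the 5 shared Six6 sites differed by more than 0.2, against 5.94% of all 5221 shared sites and 1.09% of the 1827 with at least 50 reads in each. The largest Six6 difference was 0.0632, at position 1148. If every covering read had entered, binomial sampling alone would spread the differences with an SD of 0.0471 to 0.0724 at these sites. This is a lower limit on read sampling, since the number of reads behind a fraction is not given: only 1 of the 6 listed Six6 fractions of replicate 1 and 0 of the 10 of replicate 2 were whole multiples of 1 over the coverage, within 0.0001. The observed difference was larger than this SD at 1 of the 5 sites. The mean Six6 fraction over the shared sites was 0.356 in replicate 1 and 0.351 in replicate 2, or 0.354 ± 0.00355 (SD, n = 2).

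For Six3 the comparison rested on 10 positions with 5 to 15 reads in replicate 1 and 12 to 32 in replicate 2. The fractions were more than 0.2 apart at 1 of them, position 976 on ENSMUST00000175898.3, whereas 28.3% of all 13524 positions with 5 to 19 reads in replicate 1 differed by that much. The fraction was higher in replicate 2 at 4 positions, lower at 5 and equal at 1. The root mean square difference was 0.124, against 0.218 over all positions with 5 to 19 reads in replicate 1. Those positions had 5 to 104 reads in replicate 2, against 12 to 32 for Six3, so that depth was not matched. Some Six3 places also enter on both transcripts, and the 10 positions are not independent. Of the 15 pairs of places on ENSMUST00000176081.2, 14 had the same direction in both libraries and the last was equal in replicate 1. Just above the minimum of 20 reads were positions 976 and 1059, with 22 reads and fractions of 1 and 0.533, and just below it was position 1354 on ENSMUST00000175898.3, with 17 reads and 0.111.

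**Figure D4:**
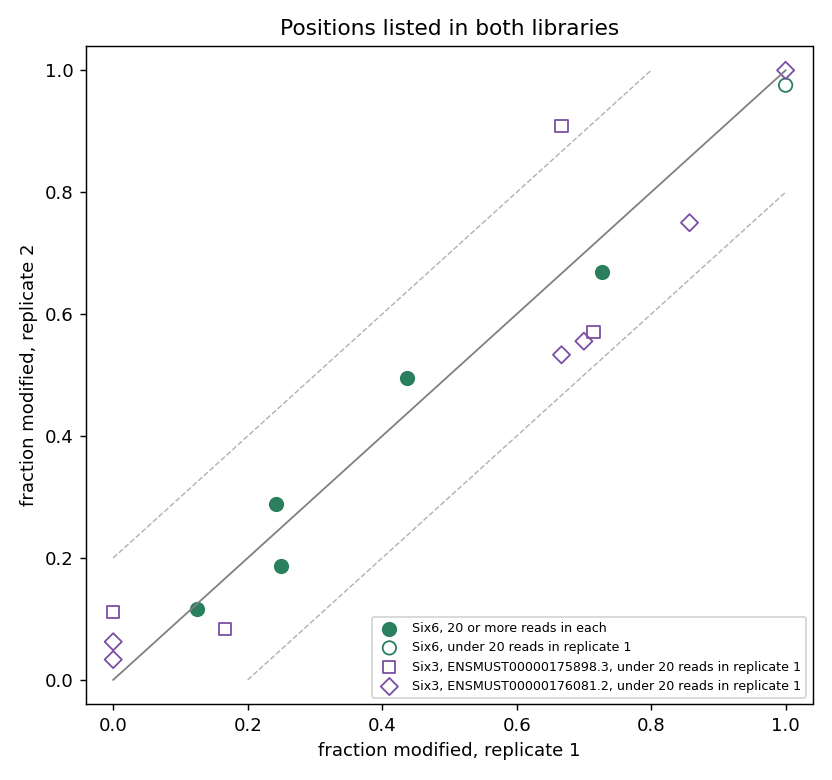
Fraction modified in replicate 2 (y axis) against replicate 1 (x axis) for the 6 Six6 and 10 Six3 positions listed in both libraries. The full line is equality and the dashed lines mark a difference of 0.2. The only point outside the dashed lines is Six3 position 976 on ENSMUST00000175898.3, at 0.667 and 0.909.

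Each site was then placed among all sites with the same 5 bases in the same library. In replicate 2, 6 of the 10 Six6 sites lay above the median of their motif and 4 below. The Six6 ggAct at position 663 lay at the 87.2nd percentile of its motif in replicate 1 and the 86.8th in replicate 2, and the ggAcc at 614 at the 28.4th and 25.6th. Of the 9 Six3 sites of replicate 2, 6 lay above and 3 below. The Six3 ggAcc at 1778 lay at the 82.8th percentile on ENSMUST00000176081.2 and the 83.9th on ENSMUST00000175898.3, and the agAct at 1854 at the 4.90th and 15.5th. By definition as many sites of a motif lie above its median as below it, so these counts are near those of all sites.

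**Figure D5:**
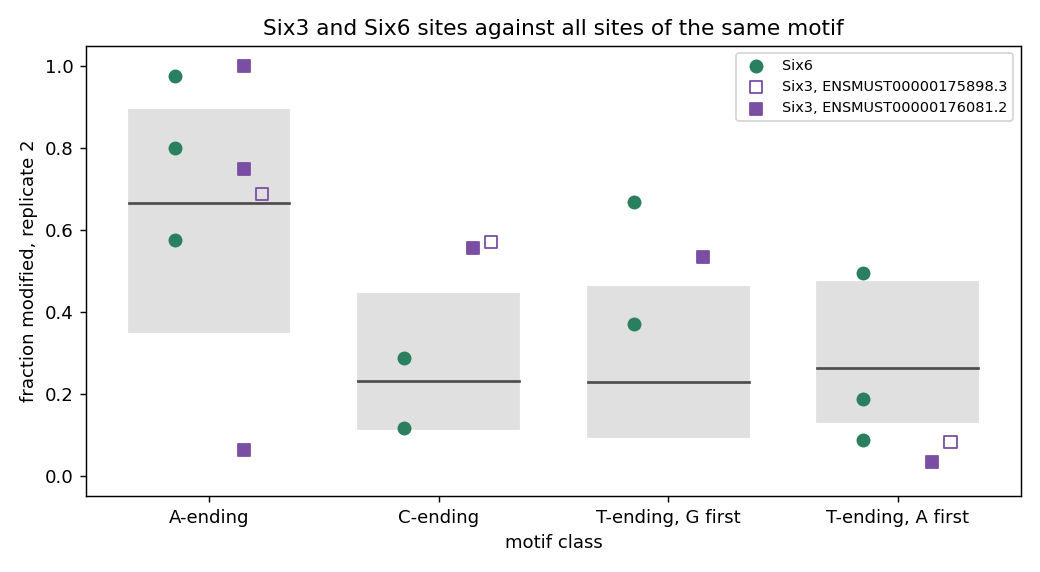
Fraction modified in replicate 2 (y axis) of Six6 (green) and Six3 (purple) sites by motif (x axis, named by the last base and, for T, the first). Grey boxes span the quartiles of all sites of that motif and lines mark their medians. Points of both genes fall above and below the lines, and the Six3 site at 0.0625 lies under the box of the A-ending motif.

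The mean fraction over the sites of replicate 2 was 0.456 for the 10 Six6 sites and 0.475 for the 9 Six3 sites, against 0.418 over all sites. With the median of the motif taken from each site, Six6 lay 0.0853 and Six3 0.0435 above it on average, so the order of the 2 genes turned. The same average over all sites was not computed and need not be 0. Six3 had sites in 1 library, and the difference between the genes was not tested.

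Among genes with 5 shared sites on 1 transcript, of which there were 101, Six6 lay at the 28.2nd percentile for its mean fraction. This mean is not set against the motifs, and none of the 5 shared Six6 sites was a ggAca, the motif with the highest median. The 5 genes nearest to its mean of 0.354 were Hdgf with 0.354, Eif2s3x and Hes1 with 0.351 each, and Ndn and Tmem167 with 0.350 each. Hes1 is a repressor downstream of Notch that keeps retinal progenitors undifferentiated. Highest and lowest site of Six6 were 0.602 apart in replicate 1, and the median of that range over the 101 genes was 0.766.

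A list of 26 genes held the sine oculis homeobox family, its partners and 2 overlapping genes. Of these 26, 14 were listed in either library and 6 of the 14 had a shared site (42.9%). Over all 8262 named genes listed in either library, 1887 had a shared site (22.8%). The list includes Six3 and Six6, which are listed by choice, and Six6 is among the 6. It was chosen with earlier results of these data known, and the difference in shares was not tested. Within the family, Six2 and Six4 were not listed in either library, and Six5 reached no more than 5 reads in replicate 1 and 14 in replicate 2. Among 7 Tle co-repressors, Tle5, a short member of the Groucho family, had 4 shared sites. Their mean fraction was 0.475 ± 0.0122 (SD, n = 2), with single values from 0.139 to 0.931. Relative to the median of the motif in each library, the mean of Tle5 was at -0.195. Tle1, Tle3 and Tle4 reached 7, 5 and 8 reads in replicate 1, then 13, 10 and 23 reads in replicate 2, where Tle4 had 1 site. Of the Eya and Dach cofactors, Eya2, Eya3 and Dach1 were listed, each with a highest coverage of 6 reads in replicate 1. In replicate 2 Eya2 reached 21 reads with 4 sites, Eya3 11 reads and Dach1 6 reads.

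Of the 5 other partners, 4 had a shared site. Gmnn, the replication inhibitor geminin that binds Six3, had 1 shared site with 0.165 ± 0.0134. Mta1, a subunit of the NuRD co-repressor complex, had 2 shared sites with a mean of 0.105 ± 0.0545. The histone deacetylase gene Hdac3 averaged 0.660 ± 0.0322 over 2 sites (each SD, n = 2). The deacetylase gene Hdac1 had 1 site with a fraction of 1 in both libraries, and its reads may be shared with a near-identical pseudogene copy. Relative to the median of the motif in each library, the means were -0.09985 for Gmnn, -0.363 for Mta1, 0.212 for Hdac3 and 0.775 for Hdac1. Over the list without Six6, 4 of 10 shared sites lay above the median of their motif in both libraries and 6 below. These are 40% and 60%, against 45.1% and 43.9% of all shared sites. The antisense gene Six3os1 and Six6os1 were not listed in the main tables.

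Of 21 genes of the eye-field network, 18 were listed in either library and 10 of these had shared sites (55.6%, against the 22.8% of all named genes). They had 43 sites, with a median fraction of 0.321 against 0.368 over all shared sites. Relative to the median of the motif in each library, the mean of Six6 was at 0.110, next to Rax at 0.115, and the lowest gene mean of the list was -0.214 in Nr2e1, a nuclear receptor of retinal progenitors. Of the 43 sites, 22 lay above and 19 below the median of their motif in both libraries, or 51.2% and 44.2%, compared with 45.1% and 43.9% of all shared sites.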

How the data were processed

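Poly(A) RNA of 2 wild-type organoid libraries was sequenced directly for about 48 h each. The authors deposited, per library, a main and a small second table of transcript positions with a fraction modified between 0 and 1 and a coverage, a whole-number count of reads. Per the submitters' processing notes the genome build is mm10. The base caller, aligner and modification caller are not given in the sources used here. Gene coordinates are as deposited. Neither gene's start lay within 1000 bases of that in RefSeq GRCm38.p6, so the build of the coordinates is taken as unknown. Median coverage was 10 and 12 reads over listed positions.

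Positions were matched on transcript, end coordinate and motif, with a minimum of 20 reads for a site (Python 3.11.15, pandas 2.3.3, SciPy 1.17.1). The matching was tested on simulated data. Percentiles count ties by their midpoint. A pair of transcripts of 1 gene was aligned by its most frequent offset with at least 3 positions of equal motif. No count test was run on fractions, whose denominators are not given. Named are all member positions, listed genes of the homeobox family and partner list and the eye-field list, and the 5 genes nearest to Six6. Members and lists were chosen with earlier results of these data known.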

Additional observations from a re-analysis of the deposited data

Results flagged for a closer look

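One Six3 position lay outside the main tables. The second, minus table of replicate 2 listed the GGACT at position 39 of ENSMUST00000175898.3 with a fraction of 0.933 over 15 reads. It is given here because no comparison used that table, which lists positions only from 5 reads. It was not listed in the minus table of replicate 1, which held 11 positions against 35 in replicate 2. Of the 35, 12 had more reads, and the median fraction was 0.917. The strand column reads plus, and how the minus tables were made is not stated. Six6 was in neither minus table. On the same transcript the first position of the main table, at 684, had 12 reads in replicate 2.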

How the results depend on the processing

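Of 49 alternative values, 33 kept their direction and stayed within 1 SD or within 1.5 times a count, 15 moved and 1 changed sign. The SD was that between replicates, except for the differences between replicates, where it was the SD over positions. For the Six3 mean in replicate 2 and for Six6 minus Six3, the SD came from the Six3 means over positions listed in both libraries. Without a coverage minimum the mean Six6 fraction was 0.459 and the gap between its highest and lowest site 0.867, since position 2799 with 5 reads in replicate 1 enters. Weighted by coverage the mean was 0.347. Without replicate 1 or 2 the unweighted mean, 0.354 with both, ran from 0.351 to 0.356 and the gap from 0.553 to 0.602. With 2 libraries, leaving 1 out cannot move a mean by 1 SD between them. These values therefore count among the 33 by construction. With 50 reads Six3 kept 0 sites in replicate 2, so no mean could be given, the family and partner list 3 genes and the eye-field list 5. With 10 reads in each library 4 Six3 positions were shared in place of 10. With 1 transcript of Six3 the shared positions were 6, its mean in replicate 2 was 0.489 and Six6 minus Six3 was -0.0327, against -0.0188 with both. That difference was -0.124 with the shared Six6 sites only and 0.0417 relative to the motif medians, where it changed sign. Medians at AGACT were 0.257 with 10 reads and 0.258 with 50, and those at GGACC 0.243 and 0.202, for causes that were not tested. Alternatives with 1 transcript of Six3 or with the shared Six6 sites only, the match within 5 nt for the Six6 difference between replicates, and those for the gap, the motif medians and the lists were chosen after seeing the data. With both libraries in 1 group, no groups could be paired, and pairing was limited to sites within a library. Depth limits Six3, of which no position reached 20 reads in replicate 1.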
